A study of Mus musculus with 2 samples.

Results

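The genes described here are 58 genes of WNT signalling, chosen by name and found among the 43346 annotated genes of the tables by matching each gene identifier, without its version, to its symbol. All 58 were matched. They fall into 19 WNT ligands, 2 genes of ligand secretion, 12 receptors (10 Frizzled receptors and 2 LRP coreceptors), 11 secreted antagonists, 7 genes of the R-spondin branch, and 7 nuclear effectors and feedback genes. The tissue was the facial prominences, the swellings that form the upper face and the jaws, from healthy B6NCrl mouse embryos at day 11.5 of development, for which no treatment is named. The 2 libraries form 1 group: the pool behind library 1 held 109 embryos and that behind library 2 held 88, male and female together. Input was 10 ng of RNA of more than 200 nt, and spike-in RNA was added. No mutant, treated or later group is set against them, so the data answer which WNT genes this tissue transcribed, at what level, in which transcript forms, and how far the pools differed. Each value is of whole prominences from many embryos, in which fewer cells of a type and less RNA per cell cannot be told apart.

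WNT ligands are secreted, lipid-modified proteins that bind a Frizzled receptor together with an LRP coreceptor at the cell surface. In the canonical branch this stops the breakdown of beta-catenin, which enters the nucleus and joins DNA-bound factors of the LEF/TCF family; other branches run through Frizzled without beta-catenin and steer cell polarity and movement. In the face, WNT signals pass between surface ectoderm and neural crest mesenchyme and are known for their part in prominence outgrowth and in the fusion of lip and palate.

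Levels are given in TPM, an abundance per unit of transcript length that sums to the same total in each library. A gene is called detected here at 1 TPM or more in both libraries. By that rule 44 of the 58 WNT genes were detected, beside 58.5% of 21474 protein-coding genes. A further 12 were below 1 TPM in both libraries, and Wnt10b and Wnt2 passed in 1 library each. The median level of the 58 was 7.69 TPM, beside 3.45 TPM over protein-coding genes, and 37 of the 58 lay above the latter. By class, all 12 receptors, all 7 effectors and both secretion genes were detected, as were 8 of 11 secreted antagonists, 5 of 7 R-spondin branch genes and 10 of 19 ligands. The ligand count depended on the threshold, with 7 detected at 2 TPM and 14 at 0.5 TPM, and genes below 1 TPM also had reads, such as Lgr6 with 173 counts over both libraries. With TPM over mouse genes alone, spike-ins left out, 12 ligands and 46 of the 58 genes were detected, Wnt10b and Wnt2 among them. Together the 58 genes took 99901 of the 28627217 expected counts on genes in library 1 (0.349%) and 98010 of 29281440 in library 2 (0.335%).

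**Figure D1:**
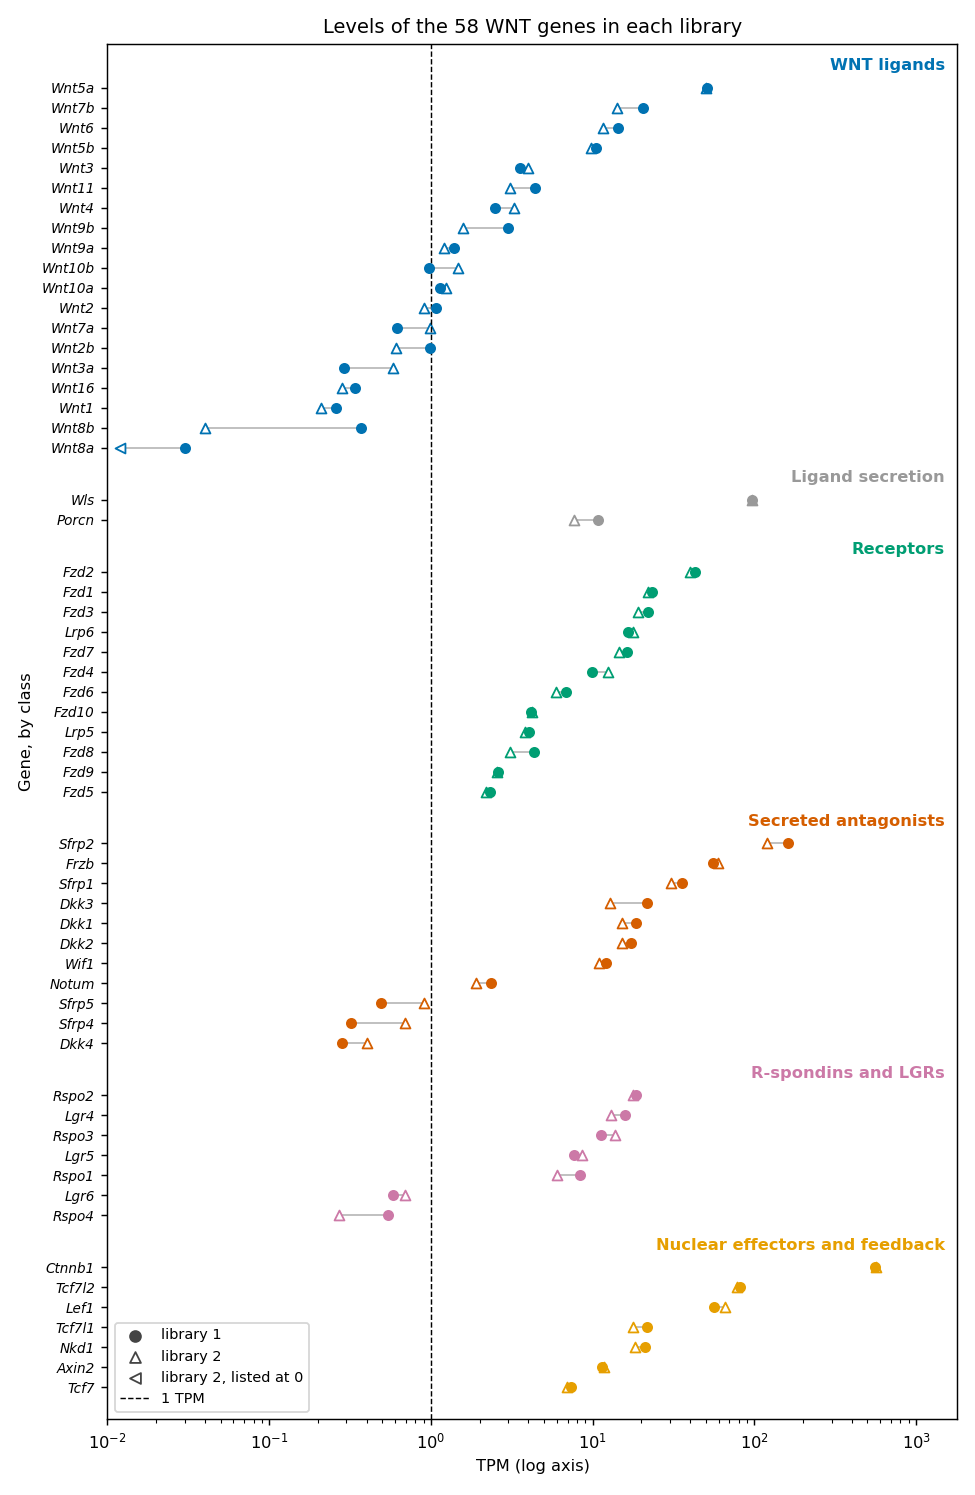
TPM (log axis) of each of the 58 WNT genes in library 1 (filled circles) and library 2 (open triangles), ordered by mean within each class, with 1 TPM as a dashed line. All receptors and effectors lie right of the line, while the ligands spread from 51.2 TPM (Wnt5a, library 1) down to Wnt8a, which is listed at 0 in library 2 and drawn at the left edge.

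The ligands were led by Wnt5a, a ligand of the branch without beta-catenin that is known for the outgrowth of face and limbs. Wnt5a (ENSMUSG00000021994.10, chromosome 14, 28504750 to 28527448, mm10) stood at 51.2 TPM in library 1 and 50.4 TPM in library 2, and it took 43.6% and 47.8% of the summed TPM of all 19 ligands. Its range did not overlap that of the next ligand. Wnt7b, a ligand known from epithelia and neural tissue, followed at 20.5 and 14.1 TPM. Wnt6, known from surface ectoderm, reached 14.4 and 11.6 TPM, so the ranges of Wnt7b and Wnt6 overlapped. Wnt5b, the closest relative of Wnt5a, stood at 10.5 and 9.77 TPM, so that Wnt5a exceeded it by 5.01 ± 0.199 times (SD, n = 2). These 4 ligands were the members of the class with a mean of 10 TPM or more.

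The middle of the ligand class held Wnt3 (3.56 and 4.01 TPM), Wnt11 (4.41 and 3.09 TPM), Wnt4 (2.49 and 3.25 TPM) and Wnt9b (2.98 and 1.58 TPM), whose ranges overlapped from each to the next. Wnt3 and Wnt9b are ligands whose loss is known to disturb the upper face or lip. Wnt9a and Wnt10a, at means of 1.295 ± 0.120 and 1.19 ± 0.0778 TPM, were the lowest detected ligands. Wnt10b had 0.97 and 1.46 TPM, and Wnt2 had 1.07 and 0.91 TPM. The 7 ligands below 1 TPM in both libraries were Wnt7a, Wnt2b, Wnt3a, Wnt16, Wnt1, Wnt8b and Wnt8a, with means from 0.800 TPM (Wnt7a) down to 0.0150 TPM (Wnt8a). Wnt1 and Wnt3a are ligands of the dorsal neural tube, and Wnt8b is a ligand of the dorsal forebrain. Wnt8a had 1 count in library 1 and none in library 2, where a count of 0 allows up to 0.0873 TPM (3 counts).

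Several ligand genes lie side by side in the mouse genome, and the pairs held unequal levels. Among all 58 genes, 4 pairs lay within 100 kb of each other, and all 4 were pairs of ligands. Wnt9b and Wnt3, on chromosome 11, point away from each other with 24.3 kb between them, and Wnt3 was the higher by 1.66 times in mean TPM. Wnt3a and Wnt9a, also divergent on chromosome 11 with 16.2 kb between them, had means of 0.435 ± 0.205 and 1.295 ± 0.120 TPM. Wnt10b and Wnt1, divergent on chromosome 15 at 11.7 kb, had means of 1.22 ± 0.346 and 0.235 ± 0.0354 TPM. The most unequal pair was Wnt6 and Wnt10a, which point the same way on chromosome 1 at 6.19 kb: Wnt6 exceeded Wnt10a by 11.0 times. In each pair the ranges of the 2 genes over the libraries did not overlap.

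Both genes that ready the ligands for release were transcribed. Wls, the carrier that brings lipid-modified WNT proteins to the cell surface, stood at 96.9 TPM in library 1 and 97.1 TPM in library 2. Porcn, the enzyme that attaches the lipid, was lower at 10.8 and 7.66 TPM. Wls exceeded Porcn by 8.95 times in library 1 and 12.7 times in library 2.

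Every receptor gene was detected, and the 10 Frizzled genes summed to 135 TPM in library 1 and 126 TPM in library 2. Fzd2 led at 43.1 and 40.1 TPM, which was 31.9% ± 0.132 of all Frizzled TPM. Fzd1 (23.3 and 22.0 TPM) and Fzd3 (21.9 and 19.2 TPM) followed, and then Fzd7 (16.3 and 14.5 TPM) and Fzd4 (9.97 and 12.5 TPM). Fzd1, Fzd2 and Fzd7 form a subfamily of close relatives, and Fzd3 is known for its part in planar polarity and axon guidance. The other Frizzled genes were Fzd6, Fzd10, Fzd8, Fzd9 and Fzd5, with means from 6.37 ± 0.608 (Fzd6) down to 2.25 ± 0.0990 TPM (Fzd5). Of the coreceptors, Lrp6 had 16.5 and 17.7 TPM, while Lrp5 had 4.02 and 3.84 TPM, so Lrp6 exceeded Lrp5 by 4.35 ± 0.353 times. The Frizzled genes summed to 1.17 ± 0.0374 times the ligands and to 6.22 ± 0.494 times the 2 coreceptors. Within the 12 receptors the ranges of neighbours in the order of levels overlapped for Lrp5 and Fzd8 only.

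The secreted antagonists together held more TPM than the ligands, 325 against 118 TPM in library 1 and 268 against 105 TPM in library 2, a ratio of 2.65 ± 0.152. The larger part of this came from proteins that bind WNT ligands outside the cell, the SFRP family and Wif1, with 265 and 223 TPM. Sfrp2 (ENSMUSG00000027996.9, chromosome 3, 83766321 to 83774316) had 160.4 TPM in library 1 and 120.2 TPM in library 2. Sfrp2 alone thus exceeded all 19 ligands together, by 1.36 times in library 1 and 1.14 times in library 2. Frzb, also known as Sfrp3, had 55.7 and 59.4 TPM, Sfrp1 had 35.6 and 30.6 TPM, and Wif1 had 12.04 and 10.9 TPM.

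Dickkopf proteins act at a different point: Dkk1, Dkk2 and Dkk4 bind the LRP coreceptors, while Dkk3 is a divergent relative that does not act in that way. Dkk3 had 21.7 TPM in library 1 and 12.8 TPM in library 2, a range that spanned those of Dkk1 (18.5 and 15.1 TPM) and Dkk2 (17.2 and 15.1 TPM). Notum, the enzyme that removes the lipid from WNT ligands and so inactivates them, was low at 2.36 and 1.90 TPM. Sfrp5, Sfrp4 and Dkk4 were below 1 TPM in both libraries, with means from 0.695 ± 0.290 (Sfrp5) to 0.340 ± 0.0849 TPM (Dkk4).

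R-spondins are secreted proteins that bind the receptors Lgr4, Lgr5 and Lgr6 and raise the amount of Frizzled at the cell surface by withdrawing the ubiquitin ligases that remove it. Rspo2, whose loss in mice is known to cause defects of the limbs and face, led with 18.4 and 17.7 TPM and took 47.4% ± 0.578 of R-spondin TPM. Rspo3 had 11.2 and 13.7 TPM, Rspo1 had 8.35 and 6.02 TPM, and Rspo4 was below 1 TPM in both libraries (0.54 and 0.27 TPM). Among the receptors Lgr4 had 15.8 and 12.9 TPM, ahead of Lgr5 with 7.72 and 8.65 TPM. Lgr6 was below 1 TPM in both libraries (0.58 and 0.69 TPM). The R-spondins summed to 1.65 ± 0.0664 times their receptors.

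Inside the cell, Ctnnb1, which encodes beta-catenin, was the most abundant of all 58 transcripts. Ctnnb1 (ENSMUSG00000006932.12, chromosome 9, 120929216 to 120960507) had 554 TPM in library 1 and 561 TPM in library 2, above 99.1% of protein-coding genes. Beta-catenin is also a part of cell adhesion junctions, so this level does not measure its signalling pool. All 4 LEF/TCF genes, which encode the DNA-binding partners of beta-catenin, were detected. Tcf7l2 had 81.5 and 77.5 TPM, Lef1 56.4 and 65.4 TPM, Tcf7l1 21.6 and 17.8 TPM, and Tcf7 7.37 and 6.90 TPM, and no range overlapped the next. Tcf7l2 took 47.5% ± 1.82 of their summed TPM, Lef1 36.4% ± 3.70, Tcf7l1 11.8% ± 1.67 and Tcf7 4.27% ± 0.211. Ctnnb1 stood at 3.33 ± 0.0193 times the 4 genes together. The feedback inhibitors Nkd1 (20.97 and 18.4 TPM) and Axin2 (11.5 and 11.8 TPM), both known as targets of canonical signalling, were both detected. The range of Nkd1 lay within that of Tcf7l1, and Axin2 was above Tcf7 in both libraries.

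**Figure D2:**
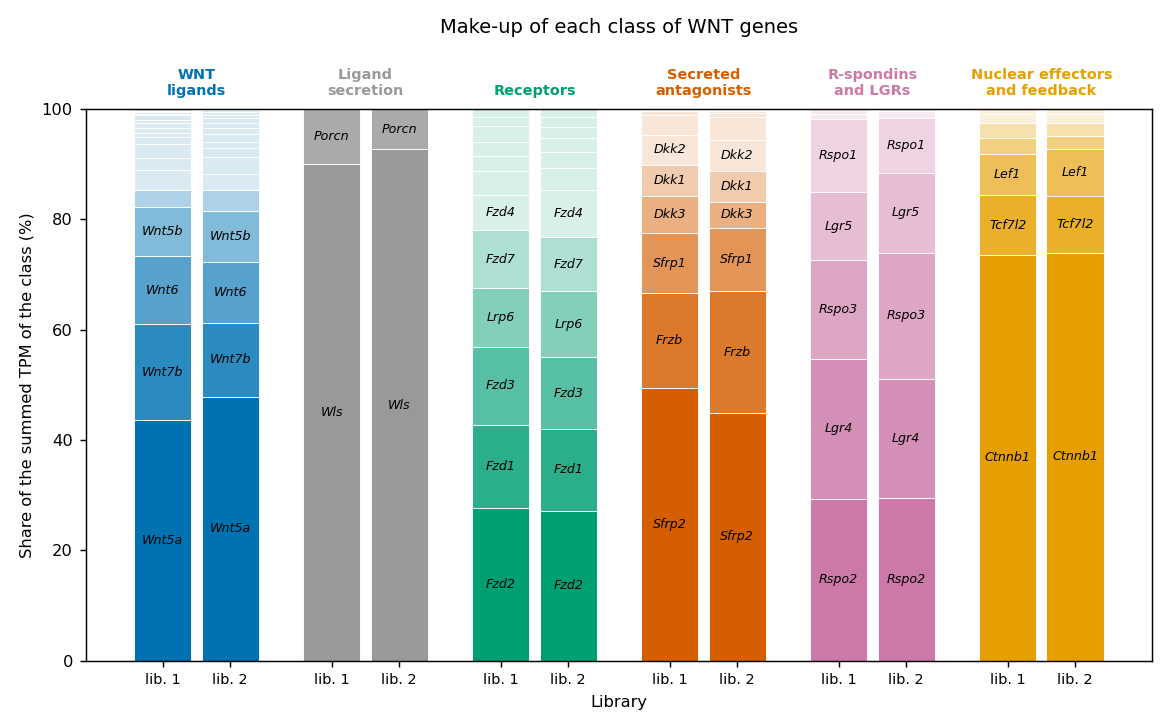
Share (percent) of the summed TPM of each class taken by each member, in library 1 and library 2; members are stacked from the highest mean at the bottom, and names are printed for shares of 4.5% or more. A single gene took over 40% of its class among the ligands (Wnt5a), the antagonists (Sfrp2) and the effectors (Ctnnb1), while the receptors and the R-spondin branch were spread over several genes. The secretion class, led by Wls, has only 2 genes, so 1 of them must pass 40%.

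The remaining machinery of the pathway was followed in 55 further genes, of which 47 were detected and 7 were below 1 TPM in both libraries. All 10 genes of the destruction complex, which tags beta-catenin for breakdown, were detected, led by the kinase gene Csnk1a1 at 254 ± 0.431 TPM. All 9 genes of signal transfer at the membrane were detected, led by Csnk1e, another kinase gene, at 78.7 ± 2.35 TPM. All 10 nuclear cofactor genes were detected too, led by the corepressor gene Ctbp1 at 260 ± 14.5 TPM. Of 9 genes for receptor turnover and surface inhibition, 8 were detected, led by Shisa2, which retains Frizzled inside the cell, at 28.1 ± 2.39 TPM, and only Trabd2b was below 1 TPM in both. Of 6 intracellular inhibitors, 5 were detected, led by Ctnnbip1, which keeps beta-catenin from LEF/TCF factors, at 50.6 ± 1.06 TPM, and Dact2 was below 1 TPM. Among 5 other secreted inhibitors, Igfbp4 (381 ± 38.6 TPM) and Sostdc1 were detected, Draxin passed in library 1 only, and Cer1 and Sost were below 1 TPM. Of 6 genes known as targets in some tissues, Ccnd1 (153 ± 6.97 TPM), Myc and Sp5 were detected, whereas Ascl2, T and Cdx2 were below 1 TPM, with Cdx2 listed at 0 in both libraries.

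Differences between the pools were measured as the ratio of expected counts, scaled for library size, with an exact 95% interval that covers counting error only. With 1 library on each side of a ratio there is no replicate check of it and no p-value. A gene was called where the fold was at least 1.5 and it had 50 counts or more over both libraries. Of the 50 WNT genes with that many counts, 3 were called toward library 1 and 3 toward library 2, beside 5.58% of 13560 protein-coding genes called either way (3.53% toward library 1 and 2.05% toward library 2). In number of genes, 31 of the 50 were higher in library 1, beside 49.2% of protein-coding genes, and their median log2 ratio of library 2 over library 1 was -0.06, beside 0.00 over protein-coding genes. The interval excluded equality for 30 of the 50, beside 43.6% of protein-coding genes. For scale, the coefficient of variation between the libraries beyond counting error was 9.80%, fitted as 1 value over 16002 genes. The ratios of genes with few counts hold counting error on top of it.

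Calls were mostly of genes with few counts. Of the 9 WNT genes with 50 to 200 counts, 4 were called, beside 29.1% of protein-coding genes in that range. Of the 27 with 1000 counts or more, 1 was called, beside 0.356% of protein-coding genes, and their median fold was 1.12. That gene was Dkk3, with 1452 counts in library 1 and 871 in library 2, 1.66-fold higher in library 1 (1.53 to 1.81). The next largest folds among genes with 1000 counts or more were those of Wnt7b, 1.42-fold higher in library 1 (1.31 to 1.54), and Sfrp2, 1.32-fold higher in library 1 (1.27 to 1.37), both under the threshold.

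Wnt9b had 270 counts in library 1 and 146 in library 2 and was 1.85-fold higher in library 1 (1.504 to 2.27). Its neighbour Wnt3 was 1.15-fold higher in library 2, with an interval that included equality (0.954 to 1.39). The other called genes had at most 114 counts over both libraries. Wnt2b was 1.59-fold higher in library 1 (1.07 to 2.37), with 70 and 44 counts. Toward library 2, Sfrp5 was 1.89-fold higher (1.04 to 3.56), Wnt7a 1.62-fold (1.07 to 2.48) and Wnt10b 1.59-fold (1.06 to 2.41). Of the 8 WNT genes with fewer than 50 counts, Wnt8b had 25 counts in library 1 and 3 in library 2, a ratio of 8.32 with a counting interval from 2.54 to 43.1; it was singled out after its values were seen. Among the further pathway genes, Rnf43, a ubiquitin ligase that removes Frizzled, was 1.80-fold (1.42 to 2.30) and Draxin 1.85-fold (1.43 to 2.40) higher in library 1. Ryk, a WNT receptor unlike Frizzled, was 1.65-fold (1.54 to 1.77) and Dact2 1.502-fold (0.910 to 2.52) higher in library 2.

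**Figure D3:**
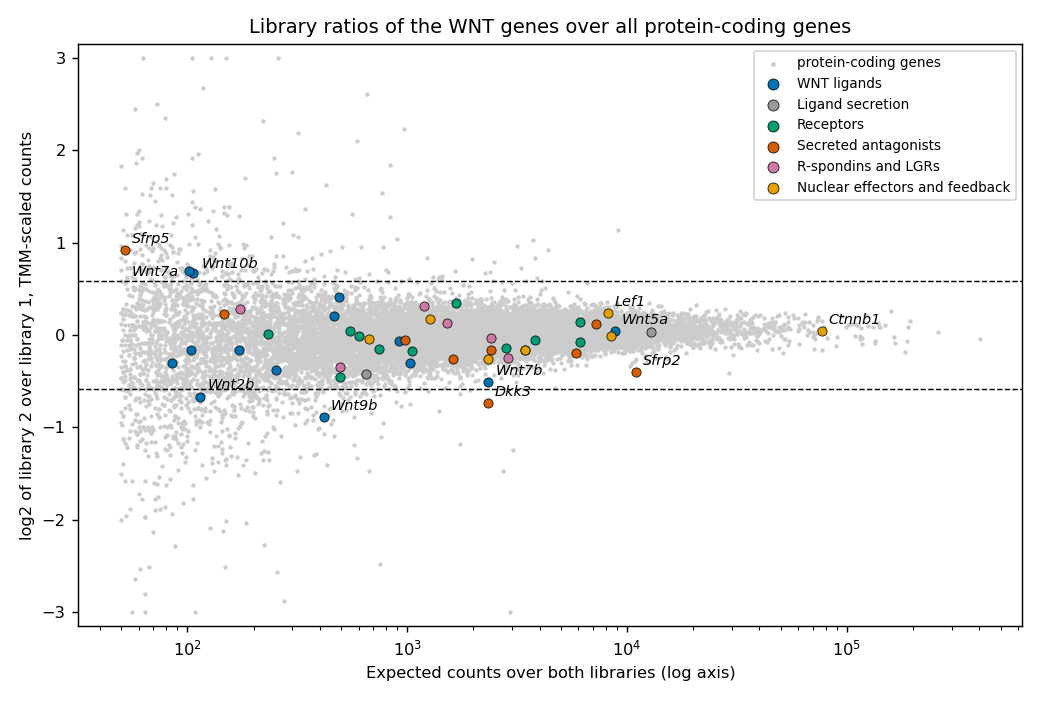
Log2 ratio of library 2 over library 1 (scaled expected counts) against expected counts over both libraries (log axis), for 13560 protein-coding genes (grey) and the 50 WNT genes with 50 counts or more (coloured by class); dashed lines mark 1.5-fold, and 9 genes beyond a log2 ratio of 3 either way are drawn at the edge. Dkk3 lies below the lower line at over 1000 counts, while the other called WNT genes lie at lower counts.

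The tissue label was checked against markers. All 9 markers of facial mesenchyme were detected, with a summed 1693 and 1608 TPM, and all 9 of surface ectoderm and epithelium, with 272 and 242 TPM. By scaled counts, 4 of the 9 mesenchyme markers and 3 of the 9 epithelium markers were higher in library 2. Other cell types were also represented, unequally for some. Erythroid markers, 5 of 5 detected, had the largest sum of any list, with 11168 and 10272 TPM. Macrophage markers, 5 of 5 detected, summed to 122 and 110 TPM. The glia and Schwann precursor list, 2 of 4 detected, had 23.17 and 22.65 TPM. The somite and trunk list, 2 of 5 detected, had 9.52 and 7.43 TPM. The lens list, with 2 of 4 markers detected, summed to 133 TPM in library 1 and 22.8 TPM in library 2, where its defining member Cryaa had 118 and 12.9 TPM. The pigment cell list, 4 of 4 detected, summed to 66.2 and 28.2 TPM. Heart markers, 5 of 6 detected, went the other way with 23.5 and 76.6 TPM, as did skeletal muscle markers, 6 of 6 detected, with 109 and 176 TPM. All 6 muscle markers were higher in library 2, but most of the rise was Actc1 (43.3 and 87.0 TPM), a cardiac actin gene. The part of heart tissue in the Actc1 level was not tested. Myod1 was only 1.06-fold higher, with an interval that included equality (0.877 to 1.29). The forebrain and eye list, 8 of 8 detected, summed to 227 and 236 TPM. Most of that sum was Fabp7 (162 and 183 TPM), and the other 7 markers went the other way, with 64.7 and 52.4 TPM; among them Pax6 had 19.98 and 10.5 TPM. Neuron markers, 6 of 6 detected, summed to 553 and 466 TPM, and endothelium markers, also 6 of 6, to 182 and 157 TPM. Sums were thus higher in library 1 for every list, mesenchyme among them, except heart, skeletal muscle, and forebrain and eye with Fabp7 included. Of the called WNT genes, Dkk3, Wnt9b and Wnt2b were higher in library 1 and Sfrp5, Wnt7a and Wnt10b in library 2. Wnt8b, under the count minimum, was higher in library 1. Of the called further pathway genes, Rnf43 and Draxin were higher in library 1 and Ryk and Dact2 in library 2. The heart marker Nkx2-5 went against its list, 1.22-fold higher in library 1 with an interval that included equality (0.789 to 1.91). The part of these cells in the WNT gene ratios was not tested. As a ratio of the libraries, the sum of the mesenchyme list differed by less than those of the muscle, heart, lens and pigment lists.

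**Figure D4:**
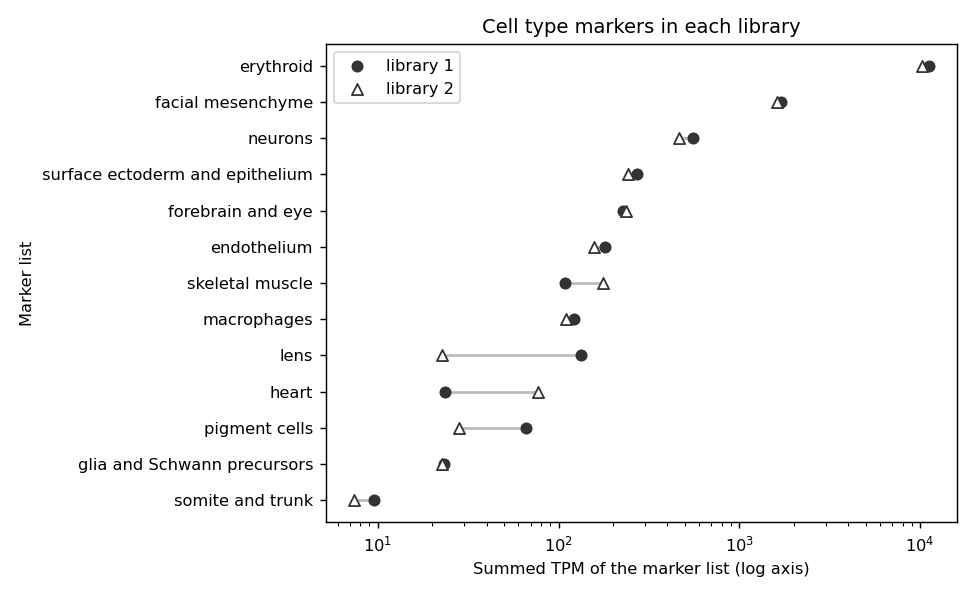
Summed TPM (log axis) of each list of cell type markers in library 1 (filled circles) and library 2 (open triangles). The lens and pigment lists are higher in library 1 and the heart and skeletal muscle lists higher in library 2, while the facial mesenchyme list sits at 1693 and 1608 TPM.

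The transcript tables divide each gene's TPM among its annotated transcripts. In Lef1, 2 coding forms with different ends dominated. Lef1-202 took 57.4% of the gene's TPM in library 1 and 50.1% in library 2, and Lef1-204 took 36.0% and 41.3%. The 2 forms part near the end of the coding sequence. Transcripts that include an exon of 41 nt, among them Lef1-202, stop inside it, and they made up 62.6% and 56.8% of coding Lef1 TPM, while Lef1-204 skips the exon and reads on to a stop codon in the last exon. The coding length is 1107 nt in Lef1-202 and 1152 nt in Lef1-204. The final coding bases are shown because they are what distinguishes the 2 main forms; lower case marks the last 12 coding bases before the forms part, the same in both, and capitals mark the bases particular to each up to and with the stop codon (35 bases on chromosome 3 at 131204933 to 131204967 and 80 bases at 131223076 to 131223155, plus strand, mm10).
Lef1-202 coding end: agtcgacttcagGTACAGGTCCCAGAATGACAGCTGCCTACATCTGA
Lef1-204 coding end: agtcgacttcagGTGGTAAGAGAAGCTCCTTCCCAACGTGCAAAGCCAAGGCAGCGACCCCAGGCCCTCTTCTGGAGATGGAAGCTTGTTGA

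An internal exon of 84 nt separates a further Lef1 form. Lef1-201, which includes it, took 2.79% and 4.20% of the gene's TPM, and the exon was included in 2.91% and 4.40% of coding Lef1 TPM. The authors' posterior SD for Lef1-201 was 51.4 counts on 109 in library 1 and 65.3 on 194 in library 2, so the share of this form is known only roughly. Lef1-203, whose coding sequence starts at a later position in the gene (131112812, against 131111472 in the other forms), was listed at 0 in both libraries. In the posterior means, Lef1-203 had 0.453% and 0.720% of coding TPM. The exon is shown in capitals between 12 flanking coding bases on each side, since its near absence is the main internal choice in this gene.
Lef1 exon of 84 nt, chromosome 3, 131191023 to 131191106, plus strand: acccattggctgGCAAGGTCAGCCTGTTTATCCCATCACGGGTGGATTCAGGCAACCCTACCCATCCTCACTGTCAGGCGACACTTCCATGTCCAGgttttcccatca

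Tcf7 has 2 transcripts in the tables, Tcf7-201 with 82.3% and 87.1% of TPM and Tcf7-202 with 17.7% and 12.9%. Both have the same coding sequence of 909 nt with the same start and stop in the annotation, so these shares do not bear on forms of the protein with different starts. Tcf7l1 was transcribed mostly as Tcf7l1-201, with 92.3% and 92.8% of TPM. Tcf7l1-202, with 7.37% and 6.28%, adds an exon of 42 nt (14 codons), which was included in 7.38% and 6.36% of coding Tcf7l1 TPM. This exon is the only coding difference between the 2 transcripts that carried nearly all of the gene's TPM, and it is shown in capitals.
Tcf7l1 exon of 42 nt, chromosome 6, 72648801 to 72648842, minus strand: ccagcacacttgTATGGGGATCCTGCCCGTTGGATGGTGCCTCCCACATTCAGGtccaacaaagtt

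Tcf7l2, a gene known for extensive alternative splicing, was the most divided of the 4, with 22 transcripts in the tables. Its leading form, Tcf7l2-209, took 37.8% of TPM in library 1 and 37.7% in library 2. Second was Tcf7l2-206, annotated as a retained-intron transcript without a coding sequence, at 22.6% and 19.5%. This short transcript of 1041 nt held 356 and 297 counts, fewer than Tcf7l2-210 with 698 and 719 counts at 10.4% and 11.0% of TPM, because TPM is per unit of length. The other forms at 5% or more in a library were the coding Tcf7l2-212 (6.51% and 4.40%) and Tcf7l2-222 (5.34% and 3.35%) and the retained-intron forms Tcf7l2-205 (5.26% and 6.66%) and Tcf7l2-207 (3.74% and 5.08%). Retained-intron transcripts together made up 36.2% and 37.8% of Tcf7l2 TPM, beside 3.79% and 4.42% in Lef1. Their part of the Tcf7l2 reads was smaller than this, since several of them are short.

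Coding Tcf7l2 transcripts differ mainly near their end. An exon of 25 nt holds the stop of Tcf7l2-209, and forms with it made up 60.3% and 61.5% of coding TPM. Tcf7l2-210, with the longest coding sequence among the forms at 5% or more (1794 nt, against 1377 nt in Tcf7l2-209), reads past it. Forms that end at the stop of Tcf7l2-210 made up 16.5% and 17.9%. Forms that end at the stop of Tcf7l2-212 made up 14.8% and 15.2%, and Tcf7l2-222, with a stop of its own, 8.47% and 5.43%. An upstream exon of 51 nt (17 codons) was included in 81.2% and 87.2%. Close to the start of the gene, an exon of 69 nt (23 codons) was included in 8.50% and 5.45%. Both are shown in capitals with their flanks, since each adds whole codons, the first in most and the second in few of the coding transcripts.
Tcf7l2 exon of 51 nt, chromosome 19, 55924530 to 55924580, plus strand: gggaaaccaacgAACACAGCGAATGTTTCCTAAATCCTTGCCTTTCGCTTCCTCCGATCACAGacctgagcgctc
Tcf7l2 exon of 69 nt, chromosome 19, 55755014 to 55755082, plus strand: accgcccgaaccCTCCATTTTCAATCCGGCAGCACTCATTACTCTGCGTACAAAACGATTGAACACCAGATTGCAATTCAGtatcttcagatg

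**Figure D5:**
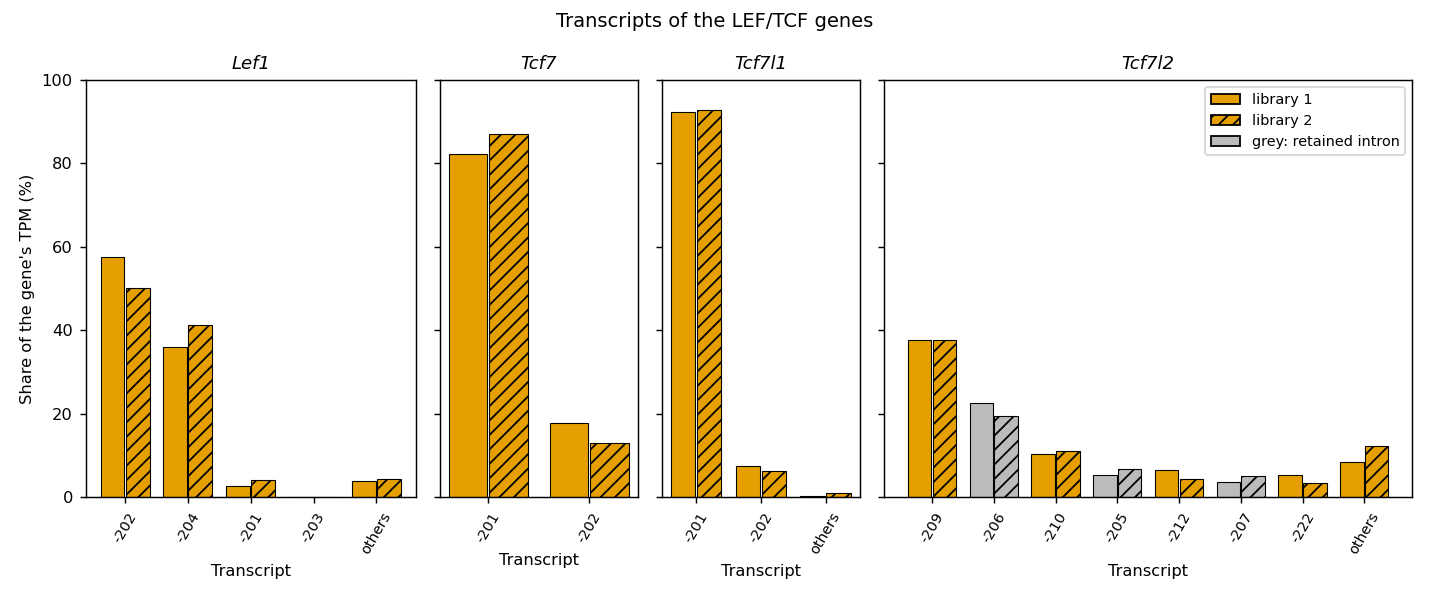
Share (percent) of each LEF/TCF gene's TPM taken by its transcripts in library 1 (plain bars) and library 2 (hatched bars); grey bars are retained-intron transcripts, and "others" sums the transcripts under 5% in both libraries that are not drawn. Tcf7 and Tcf7l1 have a single transcript above 80%, Lef1 is split mainly between Lef1-202 and Lef1-204, and Tcf7l2 is spread over many transcripts.

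Across all WNT genes with 2 or more transcripts and a mean of at least 5 TPM, the leading transcript was the same in both libraries for 21 of 21 genes, the 4 LEF/TCF genes among them. The leading transcript was a coding one in each of the 21, and it held 90% or more in both libraries for 10 of them, such as Sfrp2, Frzb, Lrp6 and Wnt6. By posterior means that number was smaller, since Lgr5-201, Rspo1-201 and Tcf7l1-201 fell under 90% in at least 1 library. Wnt5a was divided between coding forms of different coding length, Wnt5a-202 (1080 nt) with 46.4% and 47.6% and Wnt5a-201 (1140 nt) with 35.0% and 36.2%. Ctnnb1 was divided between Ctnnb1-214 with 60.3% and 62.9% and Ctnnb1-201 with 35.0% and 32.3%, whose coding sequences have the same length of 2343 nt. Lgr4 was divided by an exon of 72 nt (24 codons), included in 61.8% and 70.8% of coding Lgr4 TPM. The posterior SD of its leading transcript was 204 counts on 963 in library 1 and 166 on 927 in library 2, so the libraries' difference in this share is within the uncertainty of dividing the reads. The exon is shown as the clearest coding choice among the receptors, again in capitals.
Lgr4 exon of 72 nt, chromosome 2, 109970692 to 109970763, plus strand: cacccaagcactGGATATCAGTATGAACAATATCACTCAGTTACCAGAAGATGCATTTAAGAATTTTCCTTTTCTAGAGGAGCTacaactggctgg

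The start sites of the WNT genes were searched for the core letters bound by LEF/TCF factors. RefSeq windows of 250 bases before to 50 after a start site were matched for 39 of the 58 genes, 48 windows in all. CTTTGAT occurred on either strand in 2 of the 48 windows (4.17%), those of Wnt11 and Wnt5b, beside 3.73% of 32851 windows of all genes. CTTTGTT, searched separately, occurred in 4 of the 48 (8.33%), those of Dkk1, Fzd7, Tcf7l2 and Wnt3, beside 5.85%. The matching windows of Wnt5b and Tcf7l2 lie at start sites far inside the annotated genes, not at their outer ends. All of these are matches of letters only.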

How the data were processed

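The members and gene lists were chosen with earlier results of these data known. Per the notes deposited with the files, the authors quantified each library from its alignment to the transcriptome (assembly mm10, annotation GENCODE M4). Column names follow RSEM; tool versions and strandedness are not given in the sources used here. Expected counts, per the file headers, are reads estimated per gene or transcript, with reads that match several places divided. TPM was computed by the authors over all entries, spike-ins included (15.4% and 15.8% of TPM). The deposited isoform percentage is the percent of a gene's TPM in a transcript. The deposited posterior SD of a count was over 1% of the gene's count in 1 member, Notum.

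Library 1 held 30849058 expected counts and library 2 held 31600302. Symbols, positions and transcript structures came from GENCODE M21 (same assembly), matched on identifier; 140 of the 168 member transcripts had the same length in both releases, and among LEF/TCF forms at 5% or more, Tcf7l2-206, Tcf7l2-210 and Tcf7l2-222 did not. Exons of 12 members overlap a gene on the opposite strand, at most 2.81 TPM where listed. Exon sequences came from the M21 transcripts. Ratios took expected counts after TMM scaling (edgeR 4.0.16, R 4.3.3) with exact 95% Clopper-Pearson intervals, which cover counting error only; the variation between libraries came from edgeR's common dispersion on rounded counts. For 4 members (Wnt5a, Wnt10a, Fzd9 and Notum) TPM and scaled counts differ in direction, and each count interval included equality. The ratio and call code was tested on simulated data. No test between groups was possible with 1 group. Values per library are given for members with a mean of 10 TPM or more, the 2 highest of each class and called members; for further pathway genes, the highest of each sublist, those below 1 TPM and those called; and transcripts at 5% or more. The alternatives changed the detection threshold, the TPM estimate, the scaling (DESeq2 1.42.0 size factors, total counts, spike-ins), the count minimum and the fold, and left out each library. Per the labels the libraries are biological replicates; whether the pools share litters is not stated.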

Additional observations from a re-analysis of the deposited data

How the results depend on the processing

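The 24 results were recomputed under alternatives, which gave 114 values. Of these, 98 lay within 1.5 times the reported value for counts and for the variation between libraries, or within 1 SD of the libraries for shares, a wide margin for counts. With 2 libraries, a share from either library alone always lies within that SD, so those values could not have moved and are no check. The number of detected WNT genes ranged from 40 (2 TPM) to 49 (0.5 TPM or 20 counts), and was 45 without either library. Shares here are of the whole class (12 receptors for Fzd2, at 27.5%, and 7 R-spondin branch genes for Rspo2, at 29.5%), not of the Frizzled or R-spondin genes alone. By reads, not per length, the leading shares were 56.8% (Wnt5a), 95.2% (Wls), 22.2% (Fzd2), 34.5% (Sfrp2), 27.8% (Rspo2) and 75.9% (Ctnnb1), and Rspo2 had 28.6% by posterior mean TPM; reads favour long transcripts. Calls toward library 1 and library 2 numbered 3 and 3 under each other scaling and with posterior mean counts. They were 5 and 5 from 20 counts, 6 and 5 with no minimum, 2 and 0 from 200 counts, 0 and 0 at 2-fold and 9 and 5 at the lower fold tried, so they depend on the threshold and the count minimum. Shares from each library alone ranged from 43.6% to 47.8% (Wnt5a), 89.9% to 92.7% (Wls), 27.2% to 27.7% (Fzd2), 44.8% to 49.4% (Sfrp2), 29.4% to 29.5% (Rspo2) and 73.5% to 73.9% (Ctnnb1). By posterior means, the 7 isoform features recomputed stayed within 1 SD, but other shares did not: Tcf7l1-201 had 89.8% and 89.9%, Tcf7l2-209 36.1% and 36.4%, Porcn-203 49.6% and 46.6% and Lgr5-201 84.7% and 82.1%. The forebrain and eye sum without Fabp7 was chosen after seeing the data. No paired analysis was possible because there is only 1 group. Depth limits the genes near 50 counts, where the 1.89-fold difference of Sfrp5 had a lower bound of 1.04.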
